A study of Mus musculus with 6 samples.

Results

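The SLAM (signaling lymphocytic activation molecule) family is a set of cell surface receptors of the immunoglobulin superfamily that immune cells use to recognize one another. Its 9 mouse genes, Slamf1, Slamf6, Slamf7, Slamf8, Slamf9, Cd48, Ly9, Cd84 and Cd244, were chosen by symbol, as a family, with results of these samples known, among 23420 genes with values. The CpG values below were thus part of what the members were selected on, and they are given as a description. The thresholds applied to members mark sizes by the rule used for all genes, and are no test of the members. Most members bind a copy of themselves on a neighboring cell, whereas CD244 binds CD48. Tyrosine motifs in the tails of several members recruit small adaptors and Src family kinases or, in other settings, phosphatases, so that the same receptor can raise or restrain a response. In B cells the family takes part in contacts with T cells, in germinal center responses and in tolerance to self.

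The B cells came from spleens of wild-type BALB/c mice by bead purification, and were either stimulated for 4 hours with CpG at 10 μg/mL, a synthetic DNA that activates TLR9, or left unstimulated before mRNA sequencing. Each group held 3 samples, from 3 mice that were 7 to 11 weeks old, with 10 M cells per culture at 10 M/mL. Samples 1 and 2 of each group were labeled female and sample 3 male. The labels do not say whether a number stands for 1 mouse, so p-values measure the spread between these samples, part of which may be technical. Values are log2 CPM (the reads of a gene scaled to a library of fixed size) after quantile normalization, which leaves the samples with nearly the same distribution, so a change in total RNA cannot be seen. The commonest value, -5.15, is read here as no reads in a gene, and corresponds to a library of 17.8 M counted reads. On that scale 10 reads stand at -0.76 and 3 reads, the limit of detection used here, at -2.34, both covering counting error only. Low values also carry a shift by sample number, and some lie under -5.15, so read equivalents near the floor are approximate.

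BALB/c and C57BL/6 mice carry different haplotypes at the SLAM genes of chromosome 1. These haplotypes are known to differ in sequence, in Cd244-related copies and in the isoforms of Slamf6. The reference genome is that of C57BL/6J, and all 6 samples were BALB/c, so strains could not be compared, and the effect of BALB/c variants on the mapping of reads was not tested. Values are per gene and show no isoform. Reads from Cd244-related copies of BALB/c could have been counted under Cd244, which makes its level uncertain.

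The cell label was checked against marker genes. All 9 B cell markers had means over 10 reads, led by Cd79b with a mean of 9.48 in log2 CPM, and their summed level ran from 3213 to 3631 CPM in CpG-stimulated and from 4114 to 4749 CPM in unstimulated samples. Of 8 T cell markers 0 had a mean over 10 reads, and the most abundant, Cd28, had a mean of -1.14. Their sum stayed between 0.810 and 1.44 CPM in every sample. Of 6 NK cell markers 1 did, Prf1, at a mean of 0.84. Ncr1, Klrk1, Klrd1 and Gzma had means at or under 3 reads. Klrb1c had values of -0.84, 0.23 and 0.23 in CpG-stimulated and of -4.27, -4.79 and -4.90 in unstimulated samples. Cd244 and Slamf7 are receptors known from NK cells, and 5 of the 6 NK cell markers, Klrb1c included, had means at or under 3 reads. Prf1 was lower and Klrb1c higher with CpG, and their part in the values of SLAM family genes was not tested.

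Slamf1, the founding receptor of the family and a binder of itself, had values of 7.14, 6.92 and 6.78 log2 CPM in CpG-stimulated samples 1 to 3, and of 3.36, 2.94 and 2.99 in unstimulated samples 1 to 3. All 3 stimulated samples lay far above all 3 unstimulated ones, and the gap between the groups was many times the spread within either. The means were 6.95 ± 0.18 and 3.10 ± 0.23 (SD, n = 3), a log2FC of 3.85 with an SE of 0.13, or 14.4-fold. Between samples of the same number the difference ran from 3.78 to 3.98. Among 11233 genes tested, Slamf1 held place 44 from the highest log2FC. As in any mixed sample, more cells with Slamf1 mRNA and more Slamf1 mRNA per cell cannot be told apart, and this holds for every gene below.

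Ly9, a receptor that also binds itself, had values of 7.40, 7.14 and 7.30 with CpG and of 6.53, 6.35 and 6.52 without. The groups did not overlap, but the log2FC of 0.81 (SE 0.08) was short of the threshold of 1. Its means were 7.28 ± 0.13 and 6.46 ± 0.10 (SD, n = 3). Ly9 lies on the minus strand of chromosome 1, inside the span of Cd244 on the plus strand, but the annotated exons of the pair share 0 bases.

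Cd244, the receptor for CD48, had values of 3.53, 3.82 and 3.66 in CpG-stimulated and of 2.05, 2.01 and 2.35 in unstimulated samples. Each stimulated sample was above each unstimulated one, by more than the range within either group. The means of 3.67 ± 0.14 and 2.14 ± 0.18 (SD, n = 3) gave a log2FC of 1.53 (SE 0.14).

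Slamf6 and Cd84, receptors known for their part in contacts between B cells and T cells, had lower means with CpG. Slamf6 had values of 4.21, 4.69 and 4.55 with CpG and of 5.40, 5.50 and 5.67 without. Stimulated sample 1 was the lowest of the 6, and no stimulated sample reached the lowest unstimulated one. The means were 4.48 ± 0.25 and 5.52 ± 0.14 (SD, n = 3), and the log2FC of -1.04 (SE 0.12), a level 2.06-fold lower, stood just inside the threshold of -1. It was -0.91 without CpG-stimulated replicate 1 and -0.97 without unstimulated replicate 3, outside the threshold in both. Between samples of the same number Slamf6 differed by -1.19, -0.81 and -1.12.

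Cd84 had values of 6.15, 6.36 and 6.32 in CpG-stimulated and of 6.40, 6.50 and 6.59 in unstimulated samples. The groups came close without overlapping, since the highest stimulated sample was just under the lowest unstimulated one. Its log2FC was -0.22 (SE 0.08), far from the threshold of -1, with means of 6.27 ± 0.11 and 6.49 ± 0.09 (SD, n = 3).

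Slamf7, a self-binding receptor that works through the adaptor encoded by Sh2d1b1 and is abundant on plasma cells, had values of 8.28, 8.13 and 8.05 with CpG. Without CpG its values were 5.95, 6.08 and 5.86. Samples of a group were close together, and the groups were far apart. The means of 8.15 ± 0.12 and 5.96 ± 0.11 (SD, n = 3) gave a log2FC of 2.19 (SE 0.08), or 4.57-fold. Of its 4577 exon bases, 423 are shared with Gm37787 on the opposite strand. The paper names a stranded library kit, but neither its methods nor the labels say whether counting used the strand. Reads of this antisense gene may thus not have been separated from those of Slamf7. The summed level of 4 plasma cell markers was 408, 468 and 538 CPM in CpG-stimulated and 728, 775 and 1075 CPM in unstimulated samples, led by Igj (now Jchain) at a mean of 9.19. Igj (log2FC -0.87) and Sdc1 (log2FC -0.93) had groups apart but short of the threshold, those of Prdm1 overlapped (log2FC -0.12), and Tnfrsf17 was under the filter.

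Cd48, the lipid-anchored ligand of CD244, had values of 6.76, 6.68 and 6.81 in CpG-stimulated and of 5.21, 5.31 and 5.56 in unstimulated samples. All 3 stimulated samples were above the highest unstimulated one by over 1 log2 unit. The means were 6.75 ± 0.06 and 5.36 ± 0.18 (SD, n = 3), a log2FC of 1.39 (SE 0.09), or 2.62-fold. The ligand and its receptor Cd244 were thus both higher with CpG.

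Slamf8 and Slamf9, members with short tails that lack the switch motifs of several others, had few reads or none. Slamf8, known from myeloid cells, was at -5.15 in all 6 samples, the value of a gene without reads, which allows a level of up to 3 reads, or -2.34. Slamf9 had values of -0.57, 0.63 and 1.04 with CpG and of -0.36, 0.22 and -0.12 without. Its groups overlapped, with stimulated sample 1 the lowest and stimulated sample 3 the highest of the 6. The log2FC of 0.45 (SE 0.42) was thus no larger than the spread. It depended on single samples, at 0.92 without CpG-stimulated replicate 1 and 0.12 without CpG-stimulated replicate 3, short of the threshold in both.

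**Figure D1:**
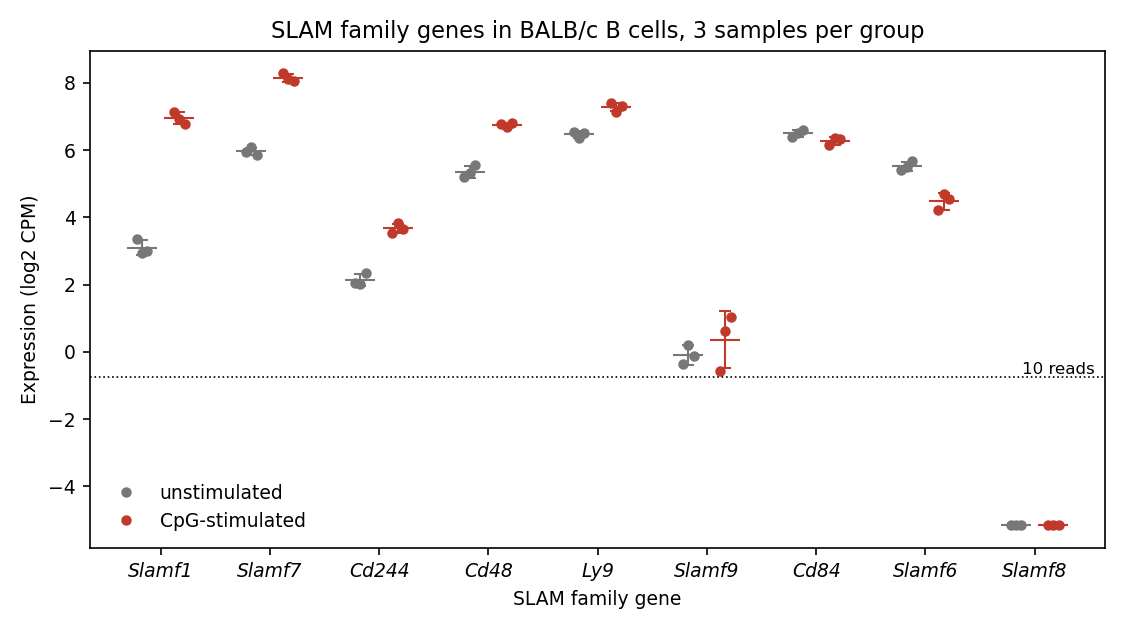
Values of the 9 SLAM family genes in log2 CPM on the vertical axis, with the genes along the horizontal axis. Points are samples (3 CpG-stimulated in red, 3 unstimulated in gray), long dashes are means, vertical bars are SDs, and the dotted line is the value of 10 reads. Slamf1 shows the widest gap between the groups, 3.10 against 6.95, Slamf6 has a lower mean with CpG, the groups of Cd84 lie close together, and Slamf8 is at -5.15 throughout.

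Of the 9 members, 8 passed the filter of 10 reads in at least 3 samples, and Slamf8 did not. At a log2FC over 1 with an FDR under 0.05 by limma, 4 members were higher (Slamf1, Slamf7, Cd244 and Cd48), where 15.8% of all genes tested were. At a log2FC under -1 with the same FDR, 1 member was lower (Slamf6), where 15.3% of all genes were. All stimulated samples were above all unstimulated ones for 5 members (39.1% of all genes) and below them for 2 members (38.6% of all genes). The median log2FC was 1.10 over the 8 members and 0.00 over all genes. Because the members were chosen with this comparison known, their FDR is no test of a change, and nothing is read from these counts.

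The order of the levels was set per kb of annotated exons. In unstimulated cells Cd48 (5.11 ± 0.18 log2 CPM per kb, mean ± SD, n = 3) and Ly9 (5.01 ± 0.10) had the highest levels, and the ranges of the pair overlapped. Cd84 (3.85 ± 0.09) and Slamf7 (3.77 ± 0.11) followed, again with overlapping ranges. The levels per kb of Slamf6 (2.70 ± 0.14), Slamf1 (1.67 ± 0.23), Cd244 (0.22 ± 0.18) and Slamf9 (-0.48 ± 0.29) came next, each apart from its neighbors.

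In CpG-stimulated cells Cd48 was again highest, at a level of 6.50 ± 0.06 log2 CPM per kb (mean ± SD, n = 3). Slamf7 (5.96 ± 0.12), Ly9 (5.82 ± 0.13) and Slamf1 (5.52 ± 0.18) came next, with the range of each overlapping that of the one after it. Cd84 stood apart at a level of 3.63 ± 0.11 log2 CPM per kb, below Slamf1, which it had exceeded in unstimulated cells. Cd244 (1.76 ± 0.14) and Slamf6 (1.66 ± 0.25) overlapped, although Slamf6 had been far above Cd244 without CpG. Cd84 is the member whose level depends most on the length used. Its exons sum to 6272 bases, and its longest coding transcript has 3434, in 2 exons against 4 to 10 in the other members. Whether that transcript stands for the mRNA of the receptor was not tested. With the length of the longest coding transcript, the unstimulated level of Cd84 becomes 4.71 log2 CPM per kb, apart from Slamf7 at 3.97. With that length Ly9 (5.15) stood above Cd48 (5.11) in unstimulated cells, their ranges still overlapping. In CpG-stimulated cells Ly9 (5.96) and Slamf1 (5.52) were then apart, and Slamf6 (1.96) stood above Cd244 (1.76) with overlapping ranges.

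Summed over the family, the level was 291, 265 and 272 CPM per kb in CpG-stimulated and 103, 104 and 113 CPM per kb in unstimulated samples. The total was higher in every stimulated sample, with means of 276 ± 13.1 and 107 ± 5.77 CPM per kb (SD, n = 3). Within that sum the share of Cd48 was 32.9% ± 1.70 with CpG and 32.5% ± 2.43 without (SD, n = 3). The share of Slamf1 was 16.7% ± 1.54 against 3.02% ± 0.585, and that of Slamf7 was 22.6% ± 1.08 against 12.8% ± 1.55. Smaller shares with CpG were those of Ly9 (20.6% ± 1.04 against 30.3% ± 2.01), Cd84 (4.50% ± 0.542 against 13.5% ± 0.441) and Slamf6 (1.16% ± 0.241 against 6.11% ± 0.288). Ly9 thus had a higher level and a smaller share of the family sum with CpG. These shares use all annotated exon bases. With the longest coding transcript the share of Cd84 would be larger in both groups. Its level is then 4.49 log2 CPM per kb with CpG and 4.71 without.

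The 3 genes tested whose values, centered on each gene's mean, were closest to those of Slamf1 over the 6 samples were Bcl2l1, Grm6 and Lag3. The root mean square difference was 0.10 log2 units for Bcl2l1, an inhibitor of cell death, which had values of 9.69, 9.46 and 9.53 with CpG and of 5.80, 5.51 and 5.63 without. It was 0.15 for Grm6, annotated as a glutamate receptor, with 296 of its 4475 exon bases shared with Gm12660 on the opposite strand. It was 0.16 for Lag3, an inhibitory receptor of lymphocytes, which had values of 4.39, 4.35 and 4.10 with CpG and of 0.79, 0.67 and 0.25 without.

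Adaptors, kinases and phosphatases that act with the receptors were listed by function, together with CD2 and its partners. The list was made with earlier results of these data known, so the FDR values of its genes are no independent test. The same holds for the other genes of chromosome 1 and the cell markers below. Of 40 such genes 36 were tested, 2 of them rose and 5 fell past the thresholds, where 15.8% and 15.3% of all genes tested did, and the median log2FC was -0.25. The adaptors that bind the switch motifs were scarcely detected. Sh2d1a, whose protein links the receptors to Fyn, was under the limit of detection in all 6 samples, with a highest value of -3.66. Sh2d1b2 was at -5.15 in all 6 samples. Sh2d1b1 had values of -0.82, -1.64 and -2.17 with CpG and of -2.77, -0.92 and -1.64 without, all under 10 reads and overlapping between the groups.

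Among the Src family kinases, Fyn had values of 8.22, 8.45 and 8.20 with CpG and of 9.35, 9.35 and 9.30 without. It fell to a log2FC of -1.04 (SE 0.08, FDR = 8.03e-07 by limma with Benjamini-Hochberg adjustment over all genes), lower in every stimulated sample, and was just past the threshold. Without CpG-stimulated replicate 3 its log2FC was -0.997, on the other side of the threshold. Yes1 rose by 1.96 (SE 0.30, FDR = 0.000186 by limma), with the values of the unstimulated samples, 1.56, 1.93 and 0.69, below all those of the stimulated ones. Lyn, the main kinase of this family in B cells, had a log2FC of -0.19 (SE 0.07, FDR = 0.0267 by limma), with all 3 stimulated samples lower and the size far from the threshold.

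Inpp5d, which encodes an inositol phosphatase that restrains B cell signaling, had values of 6.93, 7.46 and 7.10 with CpG and of 10.10, 9.94 and 10.00 without. It fell by 2.85 on the log2 scale, a level 7.21-fold lower in the stimulated samples (SE 0.12, FDR = 3.57e-08 by limma). Ptpn6, a tyrosine phosphatase that binds the same receptors, had values of 7.81, 8.25 and 8.16 with CpG and of 8.02, 7.86 and 8.12 without. Its groups overlapped, and its log2FC of 0.07 (SE 0.11, FDR = 0.564 by limma) was within the spread.

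Of the enzymes further along, Plcg1, a phospholipase, fell by 1.77 (SE 0.10, FDR = 1.62e-07 by limma) and Pik3r1, a regulatory subunit of phosphoinositide kinase, by 1.63 (SE 0.08, FDR = 5.77e-08 by limma). Nfkb1, a subunit of NF-κB, rose by 1.71 (SE 0.11, FDR = 3.05e-07 by limma). In each of these genes the groups were fully apart. Cd2, whose protein is a further partner of CD48, had values of 3.42, 4.43 and 3.87 with CpG and of 6.29, 6.54 and 6.71 without. It fell by 2.61, or 6.09-fold lower (SE 0.21, FDR = 1.95e-06 by limma), so that of the receptors of CD48, Cd244 was higher and Cd2 lower. Exons of Yes1, Plcg1, Lyn and Ptpn6 share bases with annotated antisense genes (635, 248, 248 and 195 bases), whose reads may not have been separated.

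On chromosome 1 of GRCm38 the members form 2 groups. The first 7, from Cd244 to Slamf6, lie within 394 kb at chr1:171559193-171953170, in the order Cd244, Ly9, Slamf7, Cd48, Slamf1, Cd84 and Slamf6. Slamf9 and Slamf8 follow after a gap of 522 kb, at chr1:172475358-172590568. Within the first group, the 5 members nearer the start had positive log2FC values, that of Ly9 short of the threshold. The 2 nearer the end, Cd84 and Slamf6, had negative ones, that of Cd84 far short of it. This is a description of 7 genes.

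From 5 protein coding genes before the first member to 5 after the last, the stretch holds 29 genes that are not members, 15 of them tested. Of these 3 rose and 4 fell past the thresholds, where 15.8% and 15.3% of all genes tested did, with a median log2FC of -0.46. Between the first and the last member 10 other genes were tested, and 2 rose. Tagln2, which encodes an actin-binding protein, had values of 8.44, 8.62 and 8.56 with CpG and of 6.22, 6.22 and 6.07 without, a log2FC of 2.37 (SE 0.07, FDR = 1.06e-08 by limma). Igsf9, of the immunoglobulin superfamily, rose by 2.61 (SE 0.19, FDR = 8.03e-07 by limma) from unstimulated values of 0.16, -0.02 and 0.43. Both lie just after Slamf9, whose own groups overlapped.

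The 3 genes that fell between the members lie in the gap between Slamf6 and Slamf9. They were Vangl2 (log2FC -2.42, SE 0.31, FDR = 4.63e-05 by limma), Igsf8 (log2FC -2.59, SE 0.19, FDR = 8.96e-07) and Pea15a (log2FC -1.29, SE 0.14, FDR = 1.62e-05). Vangl2, a gene of planar cell polarity, had stimulated values of -1.31, -0.37 and -0.33, near that of 10 reads. In all 3 genes every stimulated sample was below every unstimulated one. Outside the members, Itln1 was higher (log2FC 3.03) and Usf1 lower (log2FC -1.16). Both are named after their values were seen.

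**Figure D2:**
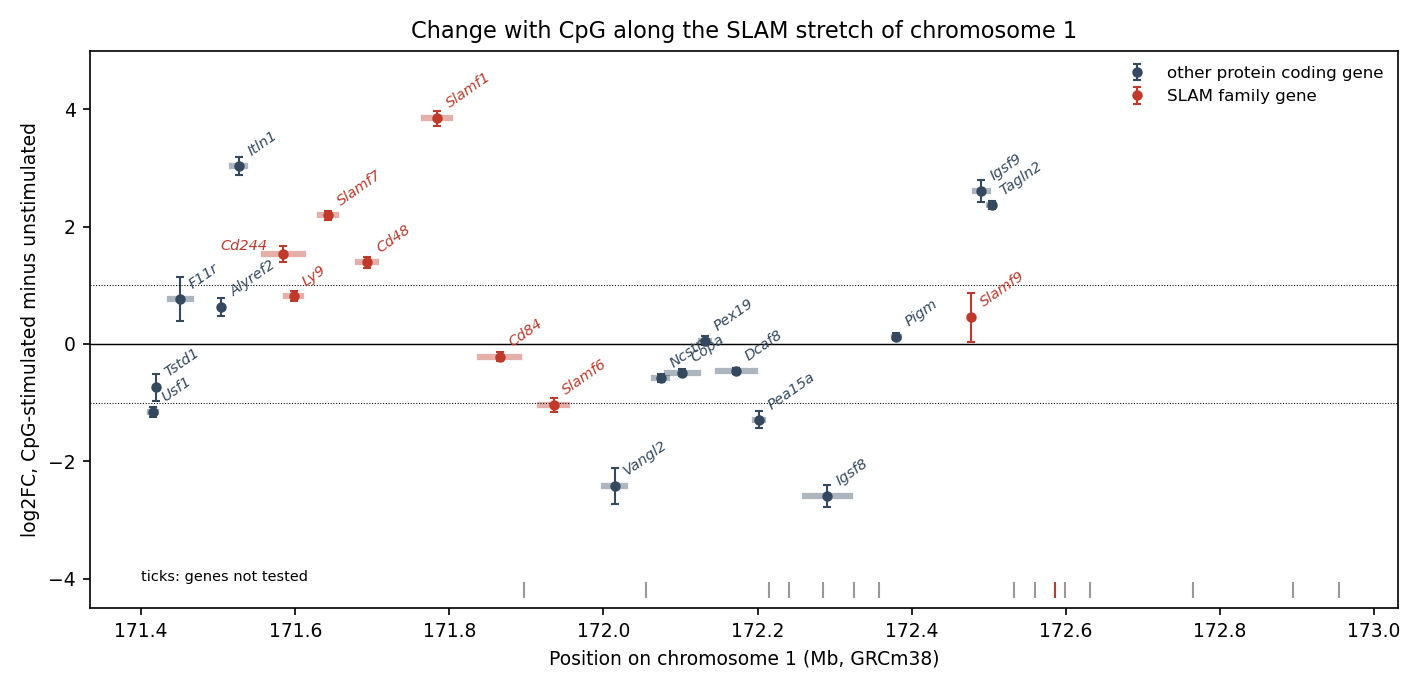
Log2FC (CpG-stimulated minus unstimulated, vertical axis) of protein coding genes by position on chromosome 1 in Mb of GRCm38 (horizontal axis). Points with bars are the log2FC ± SE of tested genes, pale lines their spans, dotted lines a log2FC of 1 and -1, and ticks at the bottom genes not tested. Members are red, and run from Cd244 at 1.53 over Slamf1 at 3.85 to Slamf6 at -1.04 within the first group.

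Promoters were read from RefSeq (GRCm38.p6), 250 bases before to 50 after each gene's start. Of the 9 members 8 matched, all but Ly9. They were searched on both strands for 4 motifs: AP-1 (TGANTCA), a shortened κB motif (GGGNNTTTC), a PU.1 type ETS motif (GAGGAA) and the cAMP response element (TGACGTCA). Among 32851 promoters of the same length, 7.81% held the AP-1 motif, 4.36% the κB motif, 28.3% the ETS motif and 1.79% the cAMP response element. These letters are a match of text and were not tested as binding sites. Those of BALB/c may differ from the reference shown.

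The AP-1 motif was found in Slamf7, Cd244, Cd84 and Slamf8, members with higher, little changed and undetected expression. Slamf8 also held the κB motif, and the ETS motif was found in Cd244, Cd84, Slamf8 and Slamf9. Slamf1, Cd48 and Slamf6 held none of the 4 in this window. The promoters of the 4 members past the upper threshold are shown, 5′ to 3′ on the strand of the gene and with matches in capitals. In Slamf7 the AP-1 match starts 42 bases before the gene's start, and in Cd244 it starts 122 bases before it. Positions refer to the RefSeq start. The GENCODE span of Slamf7, on the minus strand, reaches back to 171653035, so the window shown lies inside that span and is not its only annotated start.
Slamf1, chr1:171766882-171767181, plus strand: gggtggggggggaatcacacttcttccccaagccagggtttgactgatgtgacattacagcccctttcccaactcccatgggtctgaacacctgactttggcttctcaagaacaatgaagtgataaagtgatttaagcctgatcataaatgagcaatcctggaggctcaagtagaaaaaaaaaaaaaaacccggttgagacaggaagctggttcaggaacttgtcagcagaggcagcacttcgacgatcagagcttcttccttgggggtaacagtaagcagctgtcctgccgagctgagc
Slamf7, chr1:171648950-171649249, minus strand: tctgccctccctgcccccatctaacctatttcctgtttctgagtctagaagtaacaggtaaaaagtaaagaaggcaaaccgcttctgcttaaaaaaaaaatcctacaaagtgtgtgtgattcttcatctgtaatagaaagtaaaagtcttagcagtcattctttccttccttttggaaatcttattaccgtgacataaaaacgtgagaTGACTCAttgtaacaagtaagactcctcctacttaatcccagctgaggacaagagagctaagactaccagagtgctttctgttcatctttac
Cd244, chr1:171558943-171559242, plus strand: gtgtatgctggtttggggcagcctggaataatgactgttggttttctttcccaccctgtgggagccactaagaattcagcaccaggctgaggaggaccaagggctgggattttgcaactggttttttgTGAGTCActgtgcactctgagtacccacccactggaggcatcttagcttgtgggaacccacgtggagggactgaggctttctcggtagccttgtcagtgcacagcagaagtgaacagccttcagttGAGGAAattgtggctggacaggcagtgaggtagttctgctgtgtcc
Cd48, chr1:171681742-171682041, plus strand: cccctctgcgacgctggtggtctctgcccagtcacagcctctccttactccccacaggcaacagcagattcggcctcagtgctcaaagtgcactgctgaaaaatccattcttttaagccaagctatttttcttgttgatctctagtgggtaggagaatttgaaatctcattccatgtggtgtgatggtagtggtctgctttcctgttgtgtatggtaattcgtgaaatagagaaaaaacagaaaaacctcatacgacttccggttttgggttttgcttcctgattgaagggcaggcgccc

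Markers of other cells that moved with CpG were set beside the family. Of 7 dendritic cell markers 3 had means over 10 reads, and their summed level was 98.6, 106 and 90.8 CPM in CpG-stimulated and 39.4, 32.5 and 36.6 CPM in unstimulated samples. That sum came mostly from Zbtb46, with a mean of 5.25 in log2 CPM, and from Flt3. The third, Ccr9, went the other way (log2FC -0.94, SE 0.30, FDR = 0.0158 by limma). Itgax, Clec9a and Siglech had means at or under 3 reads, although single values of Itgax and Siglech were higher. Xcr1 had a mean between 3 and 10 reads. Of 9 myeloid markers 4 had means over 10 reads, led by Cd68 at 2.85, with sums of 20.1, 26.5 and 25.0 CPM against 12.2, 17.8 and 17.9 CPM. Cd68 rose (log2FC 1.11). Csf1r was lower (log2FC -1.61), but it passed the filter through the unstimulated samples alone. All 3 of its stimulated values were under 10 reads, so no test is given. The groups of Emr1 overlapped (log2FC 0.83, FDR = 0.00811 by limma), although it was higher with CpG between samples of each number. Those of Itgam (log2FC -0.07) and Lyz2 (log2FC -0.21) overlapped as well. S100a8, Fcgr1 and C1qa had means at or under 3 reads. The part of these markers, and of the plasma cell markers, in the values of SLAM family genes was not tested. For its MRL/lpr B cells the paper describes the removal of cells bound by antibodies to CD4, CD8, CD43, CD11b, CD11c and Gr-1. It calls the BALB/c cells bead-purified. Of 5 erythroid markers 4 had means over 10 reads, led by Beta-s (now Hbb-bs) at 9.80. They were highest in sample 2 of both groups, at 4912 and 3845 CPM in sum, and between 384 and 611 CPM in the others. Of the members tested, Ly9 alone was also at the same extreme, its lowest value, in sample 2 of both groups.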

How the data were processed

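RNA-seq values of 3 CpG-stimulated and 3 unstimulated BALB/c samples were used, grouped by their labels. Alignment to mm10 by the authors used STAR 2.6.1a, and they counted them per gene with featureCounts (Subread 2.0.1), and applied quantile normalization and voom. FastQC 0.11.7 and Trim Galore 0.6.5 are also named in the submitters' processing notes. The deposited values are log2 CPM, not counts. The commonest value, -5.15, was read as the level of 0.5 reads, which gives 17.8 M reads per library. Sorted values differed by less than 0.05 between samples at 78.9% of positions.

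The 11233 genes with a value over that of 10 reads in at least 3 samples entered a linear model per gene (lmFit, then eBayes with a trend, limma 3.58.1, R 4.3.3), with Benjamini-Hochberg adjustment over all of them. Thresholds were a log2FC over 1 or under -1 with an FDR under 0.05. Gene spans, exons and lengths came from GENCODE (GRCm38) and promoters from RefSeq. Levels per kb used all annotated exon bases, a choice made after the values were seen. The procedure was tested on simulated data, but that outcome is not given here and nothing is read from it.

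The members and lists (signaling partners, the stretch of chromosome 1, cell markers, motifs) were chosen with earlier results of these data known. The FDR values printed for genes of these lists are thus no independent test. Named genes are all members, partners past the thresholds and 8 partners always, genes between members past the thresholds, the 3 genes closest to the member with the largest log2FC, and the markers. Itln1 and Usf1, which lie outside the members, were added after their values were seen. Sh2d1a, Sh2d1b1, Sh2d1b2, Fyn, Lyn, Ptpn6, Inpp5d and Cd2 are those 8.

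Samples with the same number deviated together from their group means (correlations of 0.435, 0.224 and 0.300 across genes, against -0.281 to 0.0279 for other pairs). Differences between samples of the same number are therefore given for some genes. The main model had no term for the number, so every SE and FDR printed here is unpaired. With the number as a block, the SE of Slamf1 was 0.0745 instead of 0.128, and that of Cd244 stayed at 0.141. Values under 1 read were identical in 81.7% of comparisons between samples of the same number and 15.4% of others. A shift by number in the deposited values can give this, and it leaves the log2FC as it is but not the spread. Alternatives covered the filter, the replicate block, samples left out, the scale, the trend, the centering and, for all genes only, the threshold.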

Additional observations from a re-analysis of the deposited data

How the results depend on the processing

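Counts of genes past the thresholds stayed within 1.5 times their value under most alternatives. Over all genes, a log2FC of 0.5 gave 3209 raised and 3095 lowered genes, from 1778 and 1723, since the threshold is lower. Without each sample in turn, the members lowered ran from 0 to 1: the count was 0 without CpG-stimulated replicate 1 and without unstimulated replicate 3, where the log2FC of Slamf6 was -0.91 and -0.97. The members raised were 4 under each of the 13 alternatives run for them. A log2FC of 0.5 was not among these, and Ly9, at 0.81, lies over it. Without the 9 members, an alternative chosen after seeing the data, the stretch of chromosome 1 held 3 raised genes, from 7, by construction. With the replicate block, 1784 genes were raised and 1728 lowered, and the counts of members (4 and 1), partners (2 and 5) and genes of the stretch (7 and 5) were as without it.

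Of 104 log2FC values of the 8 members tested, over 13 alternatives, 103 moved by less than 1 SD and 0 changed sign. The filters, the replicate block and the variance trend leave a log2FC as it is by construction, so their part of this count could not move. Leaving out 1 of 3 samples cannot shift a log2FC by 1 SD either, as the SD is pooled over the groups. Centering shifts all genes by the same small amount. Only the log2(CPM + 1) scale and leaving out replicate 3 of both groups could move a value, so the count is no sign of stability. The log2FC that moved was that of Cd244, to 1.35 on the log2(CPM + 1) scale, which shrinks changes of low genes. Slamf1 ranged from 3.70 to 3.98, Slamf7 from 2.13 to 2.25, Cd48 from 1.32 to 1.49, Ly9 from 0.76 to 0.88, Cd84 from -0.27 to -0.16 and Slamf9 from 0.10 to 0.92. DESeq2 and RLE normalization need counts and could not be used on these values.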
